A study of Mus musculus with 6 samples.

Results

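Fatty acid synthesis and desaturation were described by 10 genes, taken by their symbols from the gene count table of the RNA-seq experiment: Srebf1, Fasn, Acaca, Acly, Scd1, Scd2, Elovl5, Elovl6, Fads1 and Fads2. Each symbol had 1 row among the 57010 gene identifiers of the table, and all 10 genes passed the filter on low counts, as did 14799 genes in all. The libraries were made from primary neonatal mouse cardiomyocytes (NMCMs), cells isolated from the hearts of newborn C57BL/6 mice that had not stuck to the dish while fibroblasts attached, and all were kept under hypoxia (HO). The HO + Vehicle group had 3 libraries (V1 to V3) and the HO + β-SITO group, treated with the plant sterol β-sitosterol, had 3 (T4 to T6). No library of normoxic cells was analysed here, and the dose and duration of treatment of these libraries are not given in the sources used here. The labels do not say whether the libraries of a group came from separate cultures, so the p-values measure only the spread between these libraries.

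The cell builds fatty acids in the cytosol from citrate exported by mitochondria. ATP-citrate lyase (Acly) releases acetyl-CoA, acetyl-CoA carboxylase 1 (Acaca) turns it into malonyl-CoA, and fatty acid synthase (Fasn) joins these units into palmitate. Elovl6 lengthens palmitate to stearate, and the Δ9 desaturases Scd1 and Scd2 put the first double bond into these saturated chains. Fads1 and Fads2 (the Δ5 and Δ6 desaturases) and Elovl5 act instead on polyunsaturated chains that come from the diet. Srebf1 encodes SREBP1, the membrane-bound transcription factor known for activating most of these genes. It is released from the endoplasmic reticulum by the escort protein SCAP and held there by the INSIG proteins when sterols are plentiful. The adult heart mostly burns fatty acids and is not a major site of their synthesis.

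The promoters of 7 of the 10 genes were matched by symbol in RefSeq (GRCm38.p6). That build is not the one named in the submitters' processing notes, so these positions cannot be set beside those of the count table. Sequences of 3 are shown because their genes marked the extremes and the middle of the comparison below: Elovl6 fell most, Fasn lies at the centre of the pathway, and Elovl5 rose. Each covers the 250 bases before the annotated start, from 5′ to 3′. Capitals mark matches, on either strand, to CACGTG (an E-box), CCAAT (the NF-Y box), GGGCGG (a GC box) or TCACNCCAC (SRE-like, after the sterol regulatory element).
Elovl6, chr3:129532136-129532385, plus strand: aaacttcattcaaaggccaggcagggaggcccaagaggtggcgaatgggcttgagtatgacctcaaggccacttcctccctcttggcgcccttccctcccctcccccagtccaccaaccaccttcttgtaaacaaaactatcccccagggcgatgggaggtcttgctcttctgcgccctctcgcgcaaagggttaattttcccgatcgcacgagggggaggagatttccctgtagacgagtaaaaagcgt
Fasn, chr11:120824548-120824797, minus strand: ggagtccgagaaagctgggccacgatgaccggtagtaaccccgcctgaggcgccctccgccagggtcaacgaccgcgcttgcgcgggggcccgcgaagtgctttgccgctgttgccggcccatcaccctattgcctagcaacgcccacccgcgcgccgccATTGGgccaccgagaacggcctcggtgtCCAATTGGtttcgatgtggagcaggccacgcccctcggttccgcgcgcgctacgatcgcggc
Elovl5, chr9:77917115-77917364, plus strand: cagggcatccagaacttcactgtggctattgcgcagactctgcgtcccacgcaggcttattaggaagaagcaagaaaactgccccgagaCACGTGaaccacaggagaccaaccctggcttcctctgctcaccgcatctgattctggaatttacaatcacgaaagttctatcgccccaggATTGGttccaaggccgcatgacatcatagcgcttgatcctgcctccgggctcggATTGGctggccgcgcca
The window of Elovl6 held 0 matches to any of the 4 motifs. Fasn had 3 matches to CCAAT, of which a pair overlapped, and Elovl5 had 1 E-box and 2 matches to CCAAT. The SRE-like letters were in 0 of the 9 windows of these 7 genes (Srebf1 has 3 annotated starts) and in 1.05% of 32851 promoter windows of the same length. The E-box was in 6.02% of all windows, CCAAT in 33.8% and GGGCGG in 32.7%. Acly had 4 matches to GGGCGG, Fads2 had 1, and 2 of the 3 Srebf1 windows had 2 each. CCAAT was matched 1 time in each of 2 Srebf1 windows, and the window of Acaca had 0 matches to any motif. In that window 39.2% of bases were G or C, against a median of 52.4% over all promoters. Whether it lies at the main start of Acaca was not tested. These matches describe letters only.

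Each library held 16694734 to 18460522 counts, and replicates varied with a biological coefficient of variation of 6.52%. Levels are given as CPM, counts relative to library size after TMM scaling, a method that lines libraries up on the bulk of their genes. Changes are log2 fold changes of the HO + β-SITO group against the HO + Vehicle group, with the standard error (SE) and the adjusted p of edgeR's quasi-likelihood test over all 14799 genes. A gene was called where its adjusted p was under 0.05 and its change exceeded 2-fold, the limits the study used. Means are given ± SD over the 3 libraries of a group. In bulk RNA, fewer cells of a type and less RNA per cell cannot be told apart. The markers of other cell types moved with the group. All 8 endothelial markers were called higher (summed level 190.2 to 217.3 CPM without TMM scaling in HO + Vehicle and 858.3 to 896.4 in HO + β-SITO). So were 6 of 8 macrophage markers (sum 1110 to 1235 against 2722 to 3352) and 5 of 7 smooth muscle and pericyte markers (sum 559.7 to 608.8 against 1228 to 1460). The macrophage marker Fcgr1 was called lower (mean 115.9 against 25.6 CPM after TMM scaling). Of all genes tested, 12.8% were called higher and 10.1% lower. None of the 8 fibroblast markers was called by edgeR, DESeq2 or limma-voom (5 were higher and 2 lower at an unadjusted p under 0.05), and their sum was 28505 to 29460 against 46697 to 47723. Of the 10 cardiomyocyte markers 3 (Myh7, Myl7 and Nppa) were called higher and 0 lower by edgeR, DESeq2 and limma-voom, with 4 higher and 2 lower at an unadjusted p under 0.05. Their levels summed to 5657 to 6453 in HO + Vehicle, to 5661 in T4 and to 9460 and 9638 in T5 and T6. T4 thus stood apart from the other libraries of its group. The cardiomyocyte sum was below the fibroblast sum in every library, but single genes of the 2 lists overlapped in level. Col1a1, Col1a2 and Col3a1 led the fibroblast sum (means of 9100, 6800 and 10421.5 CPM in HO + Vehicle), while Myh6 (1973) was above Dcn (1907). The part of these cell types in the results was not tested. The 8 markers of adipocytes, cells of high lipogenesis, summed to 85.9 to 97.8 against 151.5 to 172.0. Of the 3 that could be tested, Fabp4, which endothelial cells also express, was called higher (21.1 ± 3.86 against 85.3 ± 2.66 CPM), while the lipases Pnpla2 (log2 fold change -0.14, edgeR adjusted p = 0.163) and Lipe (-0.04, adjusted p = 0.822) were not. Adipoq and Retn had 0 counts in every library, and Plin1, Cidec and Lep had 1 count in a single library each.

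Fatty acid synthesis and Δ9 desaturation genes were lower in the HO + β-SITO group, the polyunsaturated elongase Elovl5 was higher, and the means of the Δ5 desaturase Fads1 were closer together than the libraries of either group. At an adjusted p under 0.05, 8 of the 10 genes were lower and 1 was higher, where 33.8% and 33% of all genes tested were lower and higher. With the 2-fold limit only Elovl6 was called (lower), which as 1 of 10 is near the background of 10.1% of all genes called lower. None was called higher by edgeR, DESeq2 or limma-voom (at an unadjusted p under 0.05, 8 were lower and 1, Elovl5, was higher), against 12.8% of all genes. The median log2 fold change of the 10 genes was -0.55, while that of all genes tested was -0.01. No library of one group reached into the other for 9 of the 10 genes, which was so for 70.5% of all genes. Together the 10 genes had 1689 to 1969 CPM in the HO + Vehicle libraries and 1303 to 1337 CPM in the HO + β-SITO libraries.

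**Figure D1:**
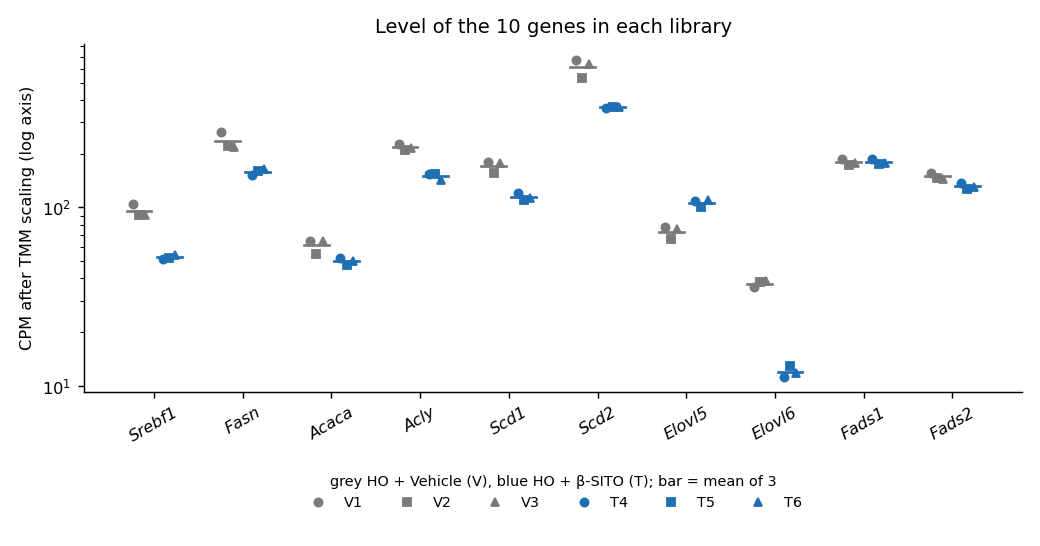
Level of each of the 10 genes in every library, in CPM after TMM scaling on a log axis, with HO + Vehicle libraries in grey, HO + β-SITO libraries in blue and a bar at the mean of 3. All blue points lie below the grey ones for 8 genes and above them for Elovl5, and they overlap for Fads1.

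Srebf1, which encodes the transcription factor of the pathway, had 104.1, 90.1 and 91.0 CPM in V1, V2 and V3 and 51.6, 52.3 and 54.3 CPM in T4, T5 and T6. All treated libraries were below all vehicle libraries, and the groups were further apart than the spread within either. The mean fell from 95.1 ± 7.82 to 52.8 ± 1.41 CPM (SD over 3 libraries), 1.80-fold lower (log2 fold change -0.85, SE 0.07, edgeR adjusted p = 2.57e-08). In the deposited table Srebf1 lies on chromosome 11 from 60089915 to 60113407 on the minus strand (the processing notes name GRCm39). It overlaps Rai1 of the opposite strand over 109 bases. Rai1 had 487 to 876 counts, and reads in that stretch cannot be assigned by strand because the strand setting of the counting is not given. The counts cover the gene as a whole, and the transcripts from its different starts were not separated.

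Acly, the lyase that supplies cytosolic acetyl-CoA, had 227.6, 210.3 and 214.3 CPM in V1 to V3 and 153.7, 153.2 and 143.2 CPM in T4 to T6. It fell by 0.54 on the log2 scale (SE 0.06, edgeR adjusted p = 9.43e-07) without overlap between the groups. Acaca, the carboxylase of the committed step, had 64.7, 55.0 and 64.6 CPM against 52.3, 47.5 and 50.2 CPM, so that V2 lay only a little above T4. Its log2 fold change was -0.30 (SE 0.07, edgeR adjusted p = 0.00247). This was the smallest decrease among the 3 synthesis enzymes, and its adjusted p was above 0.05 with library size only (log2 fold change -0.15, adjusted p = 0.0867) and with upper quartile scaling (-0.15, adjusted p = 0.0757). Those scalings moved the median of all genes from -0.01 to 0.14. A change of scaling shifts all genes by nearly the same amount, so the distance of Acaca from that median (-0.29) cannot differ between scalings. It therefore does not decide between them. Fasn, the synthase, had 265.2, 220.3 and 218.2 CPM in V1 to V3, and V1 was well above the other vehicle libraries. In T4 to T6 it had 152.0, 159.6 and 163.4 CPM. Its log2 fold change was -0.57 (SE 0.07, edgeR adjusted p = 6.28e-06), and -0.45 without V1. Fasn lies on chromosome 11 from 120696672 to 120715373, Acly on chromosome 11 from 100367179 to 100418826 and Acaca on chromosome 11 from 84020498 to 84292477.

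The Δ9 desaturases make oleate and palmitoleate. Scd2, the most abundant of the 10 genes, had 672.3, 533.1 and 640.3 CPM in V1 to V3 and 361.9, 365.0 and 364.7 CPM in T4 to T6. The vehicle libraries varied by 11.9% (coefficient of variation) and the treated ones by 0.469%, and the groups stood apart with a log2 fold change of -0.76 (SE 0.08, edgeR adjusted p = 3.32e-07), or 1.69-fold lower. Scd1 had 178.6, 156.4 and 177.6 CPM against 120.6, 109.9 and 113.0 CPM. It was 1.49-fold lower, with a log2 fold change of -0.58 (SE 0.07, edgeR adjusted p = 1.47e-06). Both genes lie in the Scd cluster on chromosome 19, Scd2 from 44282113 to 44295303 on the plus strand and Scd1 from 44382894 to 44396318 on the minus strand, with 114.2 kb between their 5′ ends. Scd1 made up 21.0%, 22.7% and 21.7% of the joint Scd1 and Scd2 counts in V1 to V3 and 24.99%, 23.1% and 23.7% in T4 to T6. The means differed by 2.13 percentage points, and the nearest libraries, V2 and T5, were 22.7% and 23.1%. An exact two-sided permutation test gave p = 0.1, which is as low as it can go with 3 libraries against 3. Of the other Scd genes in the same cluster, Scd3 had 0 or 1 count in each library. Scd4, which lies between Scd2 and Scd1 from 44321531 to 44335182, had 9, 14 and 13 counts in V1 to V3 and 43, 61 and 56 counts in T4 to T6, a log2 fold change of 1.91 (SE 0.28, edgeR adjusted p = 1.85e-05), the direction opposite to that of Scd1 and Scd2. Scd genes are close copies of each other, so the Scd4 values, which rest on few counts, are uncertain.

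The elongases moved in opposite directions. Elovl6, which lengthens palmitate, had 35.8, 37.9 and 38.4 CPM in V1 to V3 and 11.3, 12.8 and 11.8 CPM in T4 to T6. The highest treated library was far below the lowest vehicle library. The mean went down 3.13-fold, from 37.4 ± 1.39 to 11.9 ± 0.796 CPM (log2 fold change -1.65, SE 0.08, edgeR adjusted p = 8.01e-11). The change lay at the 6.16th percentile of all genes tested, and with the null set at a 2-fold change it kept its call (edgeR glmTreat, adjusted p = 1.16e-06). Elovl6 lies on chromosome 3 from 129326004 to 129432144. Elovl5, the elongase of polyunsaturated chains, had 77.9, 66.1 and 75.2 CPM against 109.2, 100.1 and 109.3 CPM, every treated library being above every vehicle library. It rose by 0.54 on the log2 scale (SE 0.07, edgeR adjusted p = 5.80e-06), or 1.45-fold. Elovl5 lies on chromosome 9 from 77824646 to 77891801. Within each library the ratio of Elovl5 to Elovl6 counts, which does not depend on how libraries are scaled, had a log2 of 1.12, 0.80 and 0.97 in V1 to V3 and 3.28, 2.97 and 3.22 in T4 to T6. The ratio was thus 4.56 times higher in the HO + β-SITO group (p = 0.1 by the same exact permutation test, again the lowest it can give). This pair was picked after its values had been seen, so that p is no independent support.

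The desaturases of polyunsaturated chains changed least. Fads1 had 186.0, 172.3 and 178.4 CPM in V1 to V3 and 187.6, 176.0 and 176.5 CPM in T4 to T6, and the libraries of the groups were interleaved. Its log2 fold change was 0.01 (SE 0.06, edgeR adjusted p = 0.892), and its sign turned without V2 (-0.01) and without T4 (-0.02). With library size only it was 0.16 (edgeR adjusted p = 0.0234) and passed the test. Its distance from the median of all genes, 0.02, is nearly fixed whatever the scaling and does not decide between the 2 results. Fads2 had 156.8, 147.1 and 145.0 CPM against 136.5, 126.8 and 130.7 CPM, with no overlap and a log2 fold change of -0.19 (SE 0.06, edgeR adjusted p = 0.0103). Its adjusted p was above 0.05 with library size only (-0.04, adjusted p = 0.567), with upper quartile scaling (-0.04, adjusted p = 0.514) and without V1 (-0.13, adjusted p = 0.0697), T5 (-0.13, adjusted p = 0.118) or T6 (-0.17, adjusted p = 0.0599). The distance of Fads2 from the median of all genes (-0.18) is likewise nearly fixed across scalings and is no check on them. The pair lies on chromosome 19, Fads2 from 10040129 to 10079110 on the minus strand and Fads1 from 10160252 to 10174241 on the plus strand, with 81.1 kb between the 5′ ends. The log2 ratio of Fads1 to Fads2 counts was 0.25, 0.23 and 0.30 in V1 to V3 and 0.46, 0.47 and 0.43 in T4 to T6, 1.15 times higher in the treated libraries (exact permutation test, p = 0.1). Fads1 against Fasn went from log2 ratios of -0.51, -0.36 and -0.29 to 0.30, 0.14 and 0.11, a 1.49-fold higher ratio. Fads1 had fewer raw counts than Fasn in every vehicle library and more in every treated one. Per kilobase of annotated exon the mean of Fads1 was above that of Fasn in both groups. It was 37.2 against 21.4 CPM per kilobase in HO + Vehicle and 37.4 against 14.5 in HO + β-SITO. Altogether 6 such ratios of counts were compared, of which all but that of Scd1 and Scd2 were picked after their values had been seen. Each had an exact permutation p of 0.1, the lowest possible here. Benjamini-Hochberg adjustment leaves equal p-values as they are, so the adjusted value of 0.1 adds nothing.

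**Figure D2:**
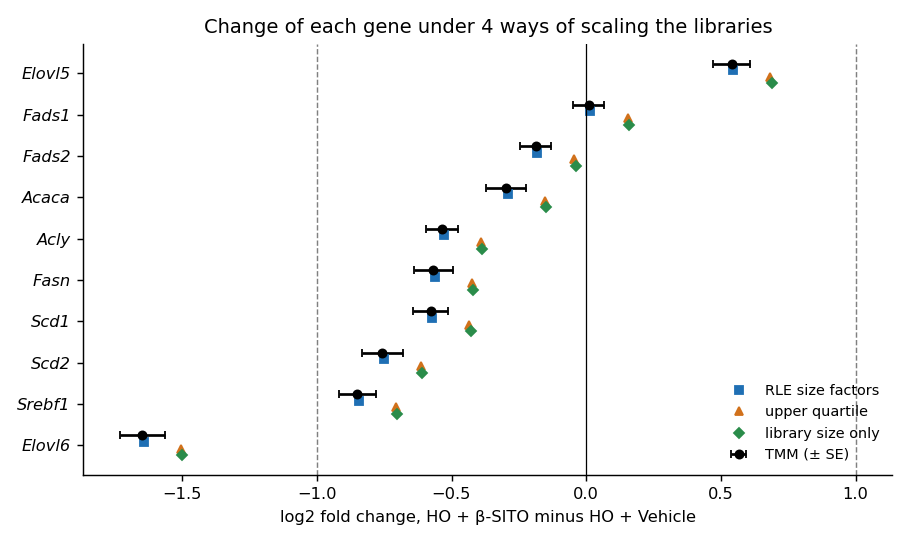
Log2 fold change of each gene, HO + β-SITO against HO + Vehicle, under TMM scaling (black, with its SE) and 3 other scalings, with dashed lines at a 2-fold change. Elovl6 lies beyond 2-fold in all 4 scalings (-1.65 to -1.50), while Fads1 moves from 0.01 to 0.16 and Fads2 from -0.19 to -0.04.

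**Figure D3:**
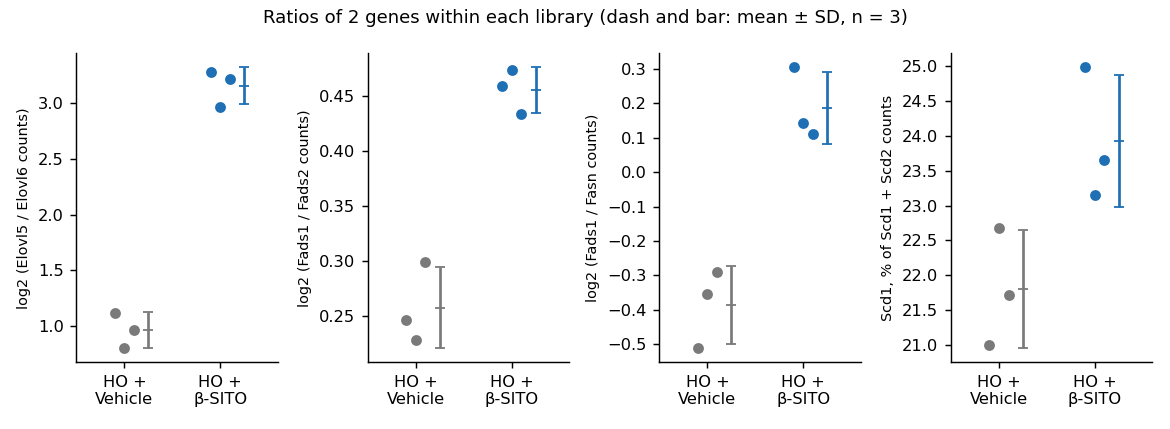
Ratios of gene pairs within each library, as log2 of the ratio of counts or, at the right, the percent of Scd1 in Scd1 plus Scd2 counts; points are libraries, and the dash and bar give mean ± SD of 3. The groups do not overlap in any panel, and the gap is widest for Elovl5 against Elovl6 (means 0.96 and 3.15).

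The genes also differed in level, which was compared as CPM per kilobase of annotated exon. In the HO + Vehicle group Scd2 was highest with 112.6 ± 13.3 (SD, n = 3), followed by Fads2 with 45.4 ± 1.91, Acly with 41.2 ± 1.72, Fads1 with 37.2 ± 1.43 and Scd1 with 34.9 ± 2.56 CPM per kilobase. Fasn (21.4 ± 2.42) and Elovl5 (20.8 ± 1.75) came next, then Srebf1 (16.9 ± 1.39), Elovl6 (5.81 ± 0.216) and Acaca (3.60 ± 0.325). Of these neighbours, Fads1 and Scd1 overlapped between libraries, and so did Fasn and Elovl5. In the HO + β-SITO group Scd2 (66.6 ± 0.312 CPM per kilobase) was still highest. Elovl5 (30.2, with libraries from 28.4 to 31.0) ranked 4 instead of 7, overlapping with Acly (28.4 ± 1.12), and Elovl6 (1.86 ± 0.124) fell below Acaca (2.93 ± 0.142) to the last place. Scd2 made up 31.6% to 34.7% of the summed CPM of the 10 genes in the vehicle libraries and 27.1% to 28% in the treated ones. V1 was the highest of the 3 vehicle libraries for 9 of the 10 genes, Elovl6 being the exception. How often V1 was the highest over all genes was not counted, so this is not shown to be particular to the 10. Without V1 the decreases were smaller for Srebf1 (-0.76), Acly (-0.48), Scd2 (-0.67) and Scd1 (-0.52) and the increase of Elovl5 was larger (0.61), and each kept an adjusted p under 0.05. Without T4, the library with the lower cardiomyocyte marker sum, Elovl6 had a log2 fold change of -1.61, Srebf1 of -0.83, Scd2 of -0.75 and Elovl5 of 0.52.

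Genes that act beside the 10 were read from lists of roles. Of 71 tested genes on 7 lists, 18 were called lower and 3 higher. The sterol synthesis list, targets of the sister factor SREBP2, held 10 of the 18, and in the other 6 lists 8 of 60 tested genes were called lower and 3 higher, beside 10.1% and 12.8% of all genes. The median log2 fold change was -1.90 for the sterol list and -0.20 for the other lists together. In the sterol list 11 of 11 tested genes were lower at an adjusted p under 0.05, beside 33.8% of all genes. None of the 10 fatty acid genes changed as much as the median of that list.

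In the control of SREBP1, 4 of 17 genes were called lower and 0 higher by edgeR, DESeq2 and limma-voom alike. Of all genes, 10.1% were called lower and 12.8% higher by edgeR. At an adjusted p under 0.05, 10 of the 17 were lower and 3 higher, beside 33.8% and 33% of all genes. At an unadjusted p under 0.05 these were 11 and 3. Insig1, which retains SREBP in the endoplasmic reticulum and is itself induced by SREBP, went from 187.0 ± 6.89 down to 43.3 ± 2.14 CPM, with 2929, 2893 and 3141 counts in V1 to V3 and 887, 767 and 794 in T4 to T6. Its log2 fold change of -2.11 (SE 0.06, edgeR adjusted p = 1.33e-13) was the largest decrease of this list. The escort Scap fell less (-0.50, SE 0.07, adjusted p = 7.77e-06). Srebf2, which encodes SREBP2, fell by 1.04 on the log2 scale (SE 0.06), just beyond 2-fold. Nr1h3, which encodes the oxysterol receptor LXRα that activates Srebf1, went from 15.6 ± 1.45 down to 6.66 ± 0.666 CPM (log2 fold change -1.23, SE 0.11, edgeR adjusted p = 1.49e-07). Nr1h2, which encodes the related LXRβ, was more abundant and fell less, from 78.1 ± 2.89 to 58.9 ± 0.759 CPM (log2 fold change -0.41, SE 0.06). Rxra, the partner of both receptors, rose from 79.3 ± 3.80 to 150.0 ± 5.49 CPM (0.92, SE 0.06), also short of 2-fold. The remaining gene called was Thrsp, a lipogenic protein, at 28, 52 and 42 counts against 13, 17 and 18 (log2 fold change -1.57, SE 0.29), named because it was among the 4. Mlxipl, the carbohydrate-responsive factor ChREBP, had only 0.688 ± 0.0561 and 1.11 ± 0.507 CPM, from 10 to 12 counts in the vehicle libraries, and missed the threshold (log2 fold change 0.67, SE 0.37, edgeR adjusted p = 0.123).

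Among genes for acetyl-CoA and NADPH supply, 1 of 10 was called lower and 0 higher by edgeR, DESeq2 and limma-voom. The 1 called lower is near the 10.1% of all genes called lower, and 12.8% were called higher. In edgeR 4 were lower and 2 higher at a p under 0.05, unadjusted or adjusted. After adjustment the shares of all genes were 33.8% and 33%. The gene called was G6pdx, the first enzyme of the pentose phosphate pathway and a source of NADPH, with a log2 fold change of -1.02 (SE 0.06, edgeR adjusted p = 4.23e-10). Slc25a1, the citrate carrier upstream of Acly, fell by 0.73 on the log2 scale (SE 0.07), while malic enzyme Me1 had 73.3 ± 5.70 and 76.5 ± 5.91 CPM (log2 fold change 0.06, SE 0.07, edgeR adjusted p = 0.484). In the list of other carboxylation and synthase genes, which includes mitochondrial fatty acid synthesis, 0 of 7 tested genes were called by edgeR, DESeq2 or limma-voom. In edgeR 3 were lower and 1 higher, with or without adjustment of the p at 0.05, beside 33.8% and 33% of all genes after adjustment. Acacb, the mitochondrial carboxylase whose malonyl-CoA restrains fatty acid oxidation in muscle, had 31.5 ± 5.56 and 35.1 ± 6.88 CPM with overlapping groups (log2 fold change 0.15, SE 0.13, edgeR adjusted p = 0.324).

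The elongation list held changes in both directions. Hsd17b12, the reductase that acts on the product of the elongases, went from 184.6 ± 7.13 down to 70.7 ± 1.58 CPM (log2 fold change -1.38, SE 0.06, edgeR adjusted p = 9.41e-12). Hacd4, a dehydratase of the same cycle, rose 3.52-fold, from 9.24 ± 0.691 to 32.5 ± 3.98 CPM (SE of the log2 fold change 0.11). The other 7 tested genes of that list stayed within 2-fold. Elovl1, the elongase of very long saturated chains, had a log2 fold change of -0.46 (SE 0.06, edgeR adjusted p = 3.41e-06), and Elovl2 and Elovl3 had too few counts to be tested. Of 6 tested desaturation genes only Scd4 was called (higher), where 12.8% of all genes were called higher. Fads3, next to Fads2 on chromosome 19, had a log2 fold change of -0.20 (SE 0.06, edgeR adjusted p = 0.00741). Downstream, in acyl-CoA activation and glycerolipid synthesis, 2 of 11 tested genes were called lower and 1 higher, beside 10.1% and 12.8% of all genes. Acsl5, an acyl-CoA synthetase, went from 316.6 ± 20.6 down to 76.7 ± 5.63 CPM (log2 fold change -2.05, SE 0.07, edgeR adjusted p = 8.19e-13). The other gene called lower was Acsl4 (-1.56, SE 0.06), which prefers arachidonate. Mogat2, a monoacylglycerol acyltransferase, was called higher on 4, 12 and 10 counts against 31, 20 and 25 (log2 fold change 1.30, SE 0.36).

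**Figure D4:**
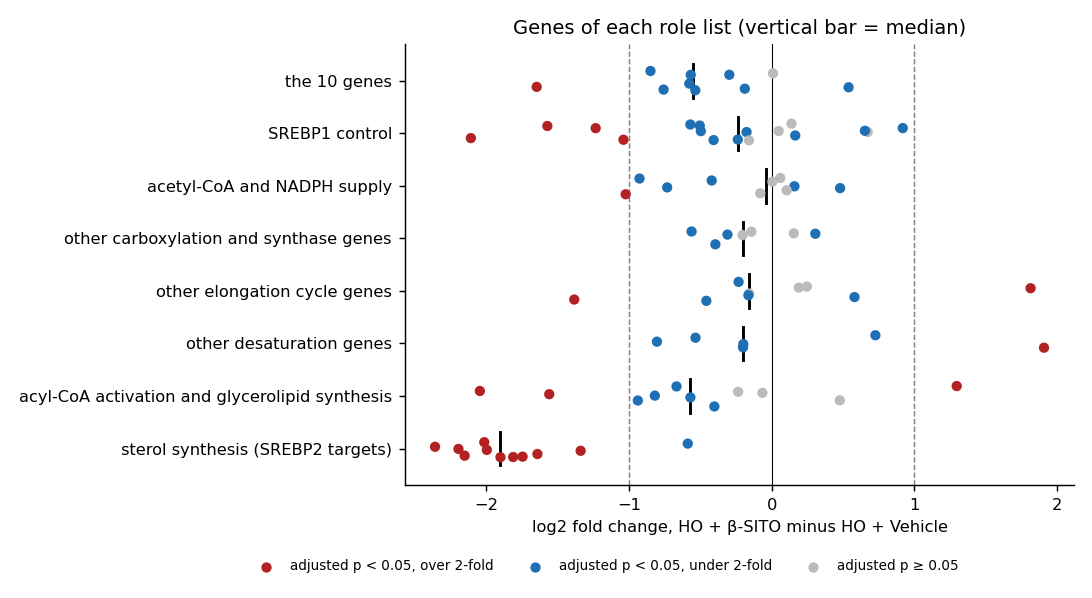
Log2 fold change of every tested gene of the 10 and of 7 role lists, HO + β-SITO against HO + Vehicle, with a vertical bar at each list's median and dashed lines at a 2-fold change; red points passed the adjusted p and the 2-fold limit, blue points the adjusted p only, grey points neither. The sterol list lies furthest to the left (median -1.90), and the 10 genes have a median of -0.55.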

How the data were processed

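Gene counts of the 6 libraries, made with featureCounts, are in 1 table that the authors deposited without scaling. The submitters' processing notes also list FastQC, HISAT2 and GRCm39, and counting options and versions are not given in the sources used here. Groups were taken from the sample labels. Column names of the treated libraries end in a letter C that the vehicle ones lack; its meaning is not given, and a separate preparation cannot be told apart from treatment. The 10 genes and the role and marker lists were chosen with earlier results of these data known.

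From the deposited counts, genes were filtered with filterByExpr, scaled by TMM and tested with edgeR 4.0.16 (R 4.3.3; quasi-likelihood test, group as the only term, Benjamini-Hochberg adjustment over 14799 genes). The SE is the log2 fold change divided by the square root of the test's F. CPM per kilobase used exon lengths of GENCODE vM21 (GRCm38), matched by identifier. The code was tested on simulated counts. Alternatives were DESeq2 1.42.0, limma-voom (limma 3.58.1), glmTreat, 3 other scalings, no filter or a stricter one (50 counts in 3 libraries), no mitochondrially encoded genes, and each library left out in turn. Named genes were the 10, the partners and paralogs set in the design, and the largest called increase and decrease of each list, except that the single gene this rule gives for the sterol list is not reported here. Thrsp, Acsl4, Nr1h2 and Rxra were added after their values were seen. Libraries of a group differed by more than sampling noise, judged by a chi-square per degree of freedom between pairs. It was lowest between T5 and T6 (1.956), against 8.566 and 9.055 for T4 with each of them. Between vehicle libraries it was 4.711 to 7.51.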

Additional observations from a re-analysis of the deposited data

How the results depend on the processing

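Of the 10 genes, 7 (Srebf1, Fasn, Acly, Scd1, Scd2, Elovl5 and Elovl6) kept their direction and an adjusted p under 0.05 in all 14 alternatives that test for any change. Acaca and Fads1 crossed 0.05 only with upper quartile scaling and library size, and Fads2 there and without V1, T5 or T6. Elovl6 was the only one of the 10 called at 2-fold in those alternatives and with glmTreat, which tests against a 2-fold change and so gives no count without a fold limit. With upper quartile scaling and with library size only, 2 of the 10 genes were higher at an adjusted p under 0.05 (Elovl5 and Fads1) and 6 were lower. Of all 14799 genes, 6126 and 6175 were higher in these scalings, and 3855 and 3816 were lower. The median of all genes was 0.14 in both scalings, against -0.01 with TMM. Changes measured from it were the same to the second decimal for Elovl6 (-1.64), Acaca (-0.29), Fads2 (-0.18) and Fads1 (0.02). A shift common to all genes fixes this in advance, so it is no test of the scaling. With a library left out, the log2 fold change of Fads1 lay between -0.02 and 0.06 (-0.0200 without T4 and 0.0603 without V1), and that of Elovl6 between -1.67 and -1.60. With the stricter filter on low counts, 1 gene of the role lists was called higher, because Scd4 and Mogat2 were no longer tested. The difference in the share of Scd1 in Scd1 plus Scd2 lay between 1.61 and 2.58 percentage points with a library left out. Called genes were 55.9% higher ones with TMM and 63.7% and 63.9% with upper quartile and library size. No paired analysis was possible because the groups share no replicate number. Each of the 10 genes had at least 219 counts in every library, and Scd4, Mogat2, Mlxipl and Thrsp rest on few counts; the effect of depth was not tested.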

Other observations

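Partners of the desaturases and elongases that the report does not name were also measured. Cyb5a, the cytochrome b5 that passes electrons to the desaturases, was at 111.8 ± 14.1 CPM with vehicle and 64.0 ± 2.56 CPM with β-SITO (mean ± SD, 3 libraries each; log2 fold change -0.80, SE 0.08). Its reductase Cyb5r3 changed less (-0.20, SE 0.05). Fads6, a relative of the fatty acid desaturases, rose from 20.3 ± 0.327 to 33.6 ± 2.14 CPM (log2 fold change 0.73, SE 0.08). Of the elongation cycle dehydratases, Hacd3 rose (0.58, SE 0.07) as Hacd4 did, Hacd2 fell (-0.23, SE 0.07) and Hacd1 missed the threshold (0.19, edgeR adjusted p = 0.124). Pgd, the second NADPH-producing enzyme of the pentose phosphate pathway, fell with G6pdx (-0.93, SE 0.06). These genes were picked after their values were seen.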
